A study of Mus musculus with 12 samples.

Results

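Whey acidic protein (WAP) domain genes encode small secreted proteins, and 6 of the 24421 genes listed for each library were followed here: Wfdc3, Wfdc2, Wfdc12, Wfdc15b, Wfdc1 and Slpi. They were chosen by name and because Wfdc3 was low and Wfdc12 high in TRAMP prostate, so the levels in TRAMP against wild type prostate are described below without a test. The other comparisons, of diet, of age and of a tumor, played no part in that choice and were tested. All 6 genes had a mean of at least 0.5 FPKM (fragments per length of transcript and size of library) and were therefore among the 13375 genes tested.

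The WAP domain is a short fold held together by disulfide bonds between conserved cysteines. Some members block serine proteases by placing a loop of the domain into the active site of the enzyme, and others are better known for killing bacteria. In the male tract such proteins are secreted by epithelium into seminal and prostatic fluid, and many of their genes sit together in a cluster beside the genes of seminal vesicle proteins.

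TRAMP mice carry the SV40 T antigen under the probasin promoter, which drives the transgene in androgen-responsive prostate epithelium, and develop prostate tumors. The labels give the strain as C57BL/6-Tg(TRAMP)8247Ng/J for TRAMP and C57BL/6 for wild type. Bulk RNA was sequenced from 12 libraries, 11 of ventral and dorsolateral prostate and 1 of a tumor whose lobe the labels leave unknown. All animals ate AIN-93M diet, and the PEITC groups had 0.05% (w/w) phenethyl isothiocyanate, an isothiocyanate of cruciferous vegetables, added to it. Wild type prostate on control diet gave 1 library at 16 weeks of age and 2 at 24 weeks. TRAMP prostate gave 2 libraries on control diet and 2 on PEITC diet at each of those ages, and the tumor came from a TRAMP mouse on control diet at 24 weeks. No wild type mouse had PEITC, and the labels do not say how many animals made a library, so the p-values below measure only the spread between these samples.

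The reads behind each library are unknown, and the steps between low values put the deepest library at 1.57 times the shallowest. Luminal epithelial markers summed to between 2985 and 3988 FPKM in all 12 libraries, so epithelial transcripts were abundant in each. That sum alone does not show which epithelium they came from. The wild type library of 16 weeks stood apart: its 9 seminal vesicle markers summed to 7824 FPKM, against 5.289 and 9.004 FPKM in the wild type libraries of 24 weeks and at most 3.08 FPKM in any TRAMP prostate. Every 16-week difference from wild type rests on that library. For the WAP domain genes followed here, the difference is therefore also given against the wild type libraries of 24 weeks. The 16-week shares of all genes called and the 16-week results of marker lists are given against the 16-week wild type library alone. One TRAMP library of the PEITC diet at 24 weeks, replicate 1, had neuroendocrine markers at a sum of 35.5 FPKM, against 1.41 to 2.82 FPKM in the other TRAMP prostates. In bulk tissue, fewer cells of a type and less RNA per cell cannot be told apart.

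Of the 6 genes, 5 lie on chromosome 2 (GRCm38, GENCODE M21): Wfdc12 at chr2:164189231-164190608, Wfdc15b at chr2:164214454-164221660, Slpi at chr2:164354070-164389095 and Wfdc3 at chr2:164731180-164745931, all on the minus strand, and Wfdc2 at chr2:164562413-164568510 on the plus strand. They span 556.7 kb. Wfdc1 lies elsewhere, at chr8:119666365-119688222 on the plus strand. Wfdc12 overlaps the antisense gene A730032A03Rik, with which 10.9% of the 50-base stretches of its transcripts are shared, and A730032A03Rik was not listed in the files, so reads of the pair may be counted together. Wfdc1 overlaps Gm32352 and Slpi overlaps Mir7678, and no 50-base stretch of the other 5 genes' transcripts occurred in another gene.

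Bases upstream of the RefSeq start are shown for 4 genes of the chromosome 2 cluster, because 2 of them were low in TRAMP prostate (Wfdc3 and Wfdc2) and 2 were high there at 24 weeks (Wfdc12 and Wfdc15b). Each window holds the 250 bases before the RefSeq start (GRCm38.p6). For 3 of the 4 the GENCODE gene begins further upstream: the windows of Wfdc3 and Wfdc2 lie within them and that of Wfdc12 overlaps its gene. The run printed is the longest stretch of the window outside GENCODE exons, 205 bases for Wfdc3, 104 for Wfdc2, 200 for Wfdc12 and all 250 for Wfdc15b. Runs are written 5′ to 3′ on the strand of the gene, and capitals mark a match to a searched motif. RefSeq promoters were matched for 5 of the 6 genes, Wfdc1 being the other.
Wfdc3, chr2:164743313-164743517, minus strand: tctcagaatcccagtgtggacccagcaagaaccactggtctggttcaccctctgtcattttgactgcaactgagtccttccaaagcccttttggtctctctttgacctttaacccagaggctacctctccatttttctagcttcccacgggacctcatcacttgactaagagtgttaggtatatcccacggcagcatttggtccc
Wfdc2, chr2:164562475-164562578, plus strand: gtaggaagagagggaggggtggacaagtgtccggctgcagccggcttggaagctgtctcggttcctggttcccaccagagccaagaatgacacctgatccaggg
Wfdc12, chr2:164190609-164190808, minus strand: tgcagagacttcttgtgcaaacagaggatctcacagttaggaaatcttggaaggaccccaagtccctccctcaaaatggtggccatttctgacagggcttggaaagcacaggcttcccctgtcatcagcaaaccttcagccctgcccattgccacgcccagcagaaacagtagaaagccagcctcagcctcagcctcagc
Wfdc15b, chr2:164221664-164221913, minus strand: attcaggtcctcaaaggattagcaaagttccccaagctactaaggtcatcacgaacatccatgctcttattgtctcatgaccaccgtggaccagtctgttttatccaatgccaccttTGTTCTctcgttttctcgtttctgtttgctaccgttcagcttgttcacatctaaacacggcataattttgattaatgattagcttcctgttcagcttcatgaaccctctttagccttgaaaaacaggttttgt
4 motifs were searched on both strands: the androgen receptor half-site AGAACA, the forkhead motif TGTTTAC, the AP-1 motif TGACTCA and the TATA box TATAAA. The only match in the 5 whole windows was an androgen receptor half-site on the opposite strand at position -133 from the RefSeq start of Wfdc15b. Among 32851 promoter windows of the same length, 16.1% held the half-site, 3.17% the forkhead motif, 4.46% the AP-1 motif and 12.4% the TATA box. A match is a description of letters, and no match says only that these letters are not in the window.

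Wfdc3, a secreted protein with several WAP domains, was the most abundant of the 6 genes in wild type prostate. Its level was 554 FPKM in the wild type library of 16 weeks and 453 and 317 FPKM in those of 24 weeks. In TRAMP prostate on control diet it was 4.98 and 7.16 FPKM at 16 weeks and 0.953 and 5.23 FPKM at 24 weeks. The groups did not overlap, and the lowest wild type library was 23.2 times the highest of the 8 TRAMP prostates. The difference on the log2(FPKM + 1) scale was -6.77 at 24 weeks and -6.31 at 16 weeks, or -5.77 for the 16-week TRAMP libraries against the 24-week wild type ones. Groups did not overlap for 4 of the 6 genes (Wfdc3, Wfdc12, Wfdc2 and Wfdc1), and for 44.2% of all genes tested. Among all genes tested with limma, 45% were called at an adjusted p under 0.05 between TRAMP and wild type at 24 weeks and 33.6% at 16 weeks, 22% and 15.4% being lower in TRAMP.

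On PEITC diet, Wfdc3 was 13.67 and 11.97 FPKM at 16 weeks and 3.20 and 2.88 FPKM at 24 weeks. The 16-week PEITC pair was thus the highest of the TRAMP pairs. The TRAMP libraries of control diet at 24 weeks differed 5.48-fold from each other, more than any other pair did for Wfdc3, and the tumor, at 1.47 FPKM, lay between them.

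Wfdc2, also known as HE4, is a secreted epithelial protein used as a serum marker of ovarian cancer. Its level in wild type prostate was 161 FPKM at 16 weeks and 87.2 and 53.0 FPKM at 24 weeks. TRAMP prostate on control diet held 13.5 and 9.28 FPKM at 16 weeks and 19.3 and 15.0 FPKM at 24 weeks. The PEITC libraries were at 18.9 and 14.8 FPKM at 16 weeks and 8.78 and 14.6 FPKM at 24 weeks. No TRAMP prostate reached the wild type range, the lowest wild type library being 2.75 times the highest TRAMP prostate. The log2 difference from wild type was -1.94 at 24 weeks and -3.73 at 16 weeks, or -2.50 for the 16-week TRAMP libraries against the 24-week wild type ones. Wfdc2 varied least of the 6 genes among the 8 TRAMP prostates, 2.19-fold from lowest to highest, against 14.3-fold for Wfdc3.

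Markers of prostate secretion, 12 genes that include probasin (Pbsn), were also lower in TRAMP prostate, where Wfdc3 and Wfdc2 were low. They summed to between 26380 and 31236 FPKM in wild type and between 4136 and 8936 FPKM in TRAMP prostates, and 10 of the 12 fell and 1 rose at 24 weeks (median log2 difference -1.77, against -0.0007 over all genes tested). The lowest sum among TRAMP prostates, 4136 FPKM, was in the 24-week control library, replicate 0, which also had the lowest Wfdc3. That library had the highest Wfdc2 of the TRAMP prostates, 19.3 FPKM. The tumor had a lower secretory sum, 3048 FPKM, with Wfdc2 at 36.6 FPKM and Wfdc3 at 1.47 FPKM. Basal epithelial markers summed to between 124 and 157 FPKM in wild type and between 42.2 and 65.6 FPKM in TRAMP prostates, and 5 of the 7 tested fell at 24 weeks. Their part in the levels of Wfdc3 and Wfdc2 was not tested.

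Wfdc12, a secreted single-domain protein with antibacterial activity, was close to undetected in wild type prostate. Its level was 0.611 FPKM at 16 weeks and 0.0633 and 0.124 FPKM at 24 weeks. The step between its low values was set from these 3 values, so that each fell within 0.1 of a whole number of steps. If that step is 1 fragment, these values are 9, 1 and 2 fragments, against 75 to 534 in TRAMP prostates. TRAMP prostate on control diet held 8.01 and 9.06 FPKM at 16 weeks and 22.3 and 24.6 FPKM at 24 weeks, and PEITC libraries held 4.92 and 17.1 FPKM at 16 weeks and 13.02 and 16.27 FPKM at 24 weeks. Every TRAMP prostate was above every wild type library, the lowest at 8.04 times the highest wild type one. The log2 difference was 4.48 at 24 weeks, where 23% of all genes tested were called higher, and 2.56 at 16 weeks, where 18.1% were, or 3.12 for the 16-week TRAMP libraries against the 24-week wild type ones. Because the wild type values are so low, no ratio of group means is given.

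Wfdc15b, the gene next to Wfdc12 among the 6 and likewise an antibacterial single-domain protein, was low in the wild type pair of 24 weeks alone. It was at 0.720 and 0.236 FPKM in wild type libraries of 24 weeks, and at 6.92 and 16.7 FPKM in TRAMP prostate of that age on control diet. The wild type library of 16 weeks held 6.18 FPKM, within the TRAMP range, while TRAMP prostate of 16 weeks held 11.2 and 8.71 FPKM on control diet and 4.90 and 5.04 FPKM on PEITC diet. PEITC libraries of 24 weeks held 15.1 and 16.7 FPKM. The log2 difference was 3.02 at 24 weeks and 0.60 at 16 weeks, and the latter became 2.90 against the wild type libraries of 24 weeks.

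Sums of T and NK cell and of macrophage markers were also higher in TRAMP prostate, where Wfdc12 and, at 24 weeks, Wfdc15b were high. Neutrophil markers were not, at 0.288 to 8.10 FPKM in wild type and 0.023 to 1.43 FPKM in TRAMP prostates. The 8 T and NK cell markers summed to between 12.6 and 21.2 FPKM in wild type, between 47.5 and 76.4 FPKM in TRAMP prostates and to 46.7 FPKM in the tumor, and none was at 0 in any library. Of the 7 tested, 5 rose at 24 weeks, among them Ccl5, Lck, Gzmb and Cd8a (median log2 difference 0.85), 3 rose at 16 weeks and 0 changed in the tumor. The 10 macrophage markers summed to between 67.9 and 102 FPKM in wild type and between 117 and 390 FPKM in TRAMP prostates. They summed to 303 FPKM in the tumor. At most 1 marker was at 0 in a library. Of the 9 tested, 6 rose at 24 weeks, among them the complement genes C1qa, C1qb and C1qc, and 0 were called at 16 weeks. Among all genes tested, 23% were called higher in TRAMP at 24 weeks and 18.1% at 16 weeks. The part of these cells in the levels of Wfdc12 and Wfdc15b was not tested.

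Slpi, the secretory leukocyte protease inhibitor, blocks neutrophil elastase and cathepsin G. It was low in every prostate: 0.956 FPKM in wild type at 16 weeks, 0.210 and 0.0514 FPKM in wild type at 24 weeks, 0.7709 and 0.1995 FPKM in TRAMP control libraries of 16 weeks, and 1.43 and 0.979 FPKM in those of 24 weeks. PEITC libraries held 0.161 and 0.209 FPKM at 16 weeks and 1.14 and 0.617 FPKM at 24 weeks. The wild type library of 16 weeks and 1 of the 24-week pair lay within the TRAMP range. The other, at 0.0514 FPKM, lay below it. The log2 difference was 0.96 at 24 weeks and -0.42 at 16 weeks, and turned to 0.37 when the 16-week TRAMP libraries were set against the 24-week wild type ones. At 1 fragment a step, the prostate libraries held between 1 and 40 Slpi fragments each.

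The wild type library of 16 weeks was the highest of the 3 wild type libraries for all 6 genes. For Wfdc3, Wfdc2 and Wfdc1 its level was 1.44, 2.30 and 1.35 times the mean of the 24-week pair, whereas for Wfdc15b and Slpi it was 12.9 and 7.32 times that mean. Svs2 and Svs5, seminal vesicle genes that lie between Wfdc15b and Slpi, were at 3095 and 2945 FPKM in that library. With 1 library, age and the seminal vesicle transcripts cannot be told apart.

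Wfdc1, a secreted protein first described in prostate stroma, was at 5.14 FPKM in wild type at 16 weeks and at 3.30 and 4.32 FPKM at 24 weeks. TRAMP control libraries held 1.73 and 1.97 FPKM at 16 weeks and 0.829 and 1.83 FPKM at 24 weeks, and PEITC libraries held 2.05 and 2.94 FPKM at 16 weeks and 1.39 and 1.56 FPKM at 24 weeks. The ranges came close without overlapping, the lowest wild type library being 1.12 times the highest TRAMP prostate. The log2 difference was -1.07 at 24 weeks and -1.11 at 16 weeks, or -0.75 for the 16-week TRAMP libraries against the 24-week wild type ones.

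Smooth muscle markers, like Wfdc1, were lower in TRAMP than in wild type prostate. The 10 markers, which include smooth muscle actin (Acta2) and smooth muscle myosin (Myh11), summed to between 891 and 1065 FPKM in wild type libraries and between 339 and 778 FPKM in TRAMP prostates, and 8 of the 10 fell at 24 weeks (median log2 difference -1.31). The TRAMP prostate with the highest sum, replicate 1 of the PEITC diet at 16 weeks, had the highest Wfdc1 of the TRAMP prostates. The one with the lowest sum, 339 FPKM in replicate 0 of the control diet at 24 weeks, had the lowest Wfdc1, 0.829 FPKM. Sums close to that one, however, came with higher Wfdc1. Replicate 1 of the PEITC diet at 24 weeks had a sum of 342 FPKM and Wfdc1 at 1.56 FPKM. Replicate 0 of the control diet at 16 weeks had 346 FPKM and 1.73 FPKM. The 8 fibroblast markers, another stromal list, had 0 genes called at 24 weeks and 0 at 16 weeks in the same limma fit, with medians of 0.44 and 0.15. The part of smooth muscle content in the Wfdc1 values was not tested.

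**Figure D1:**
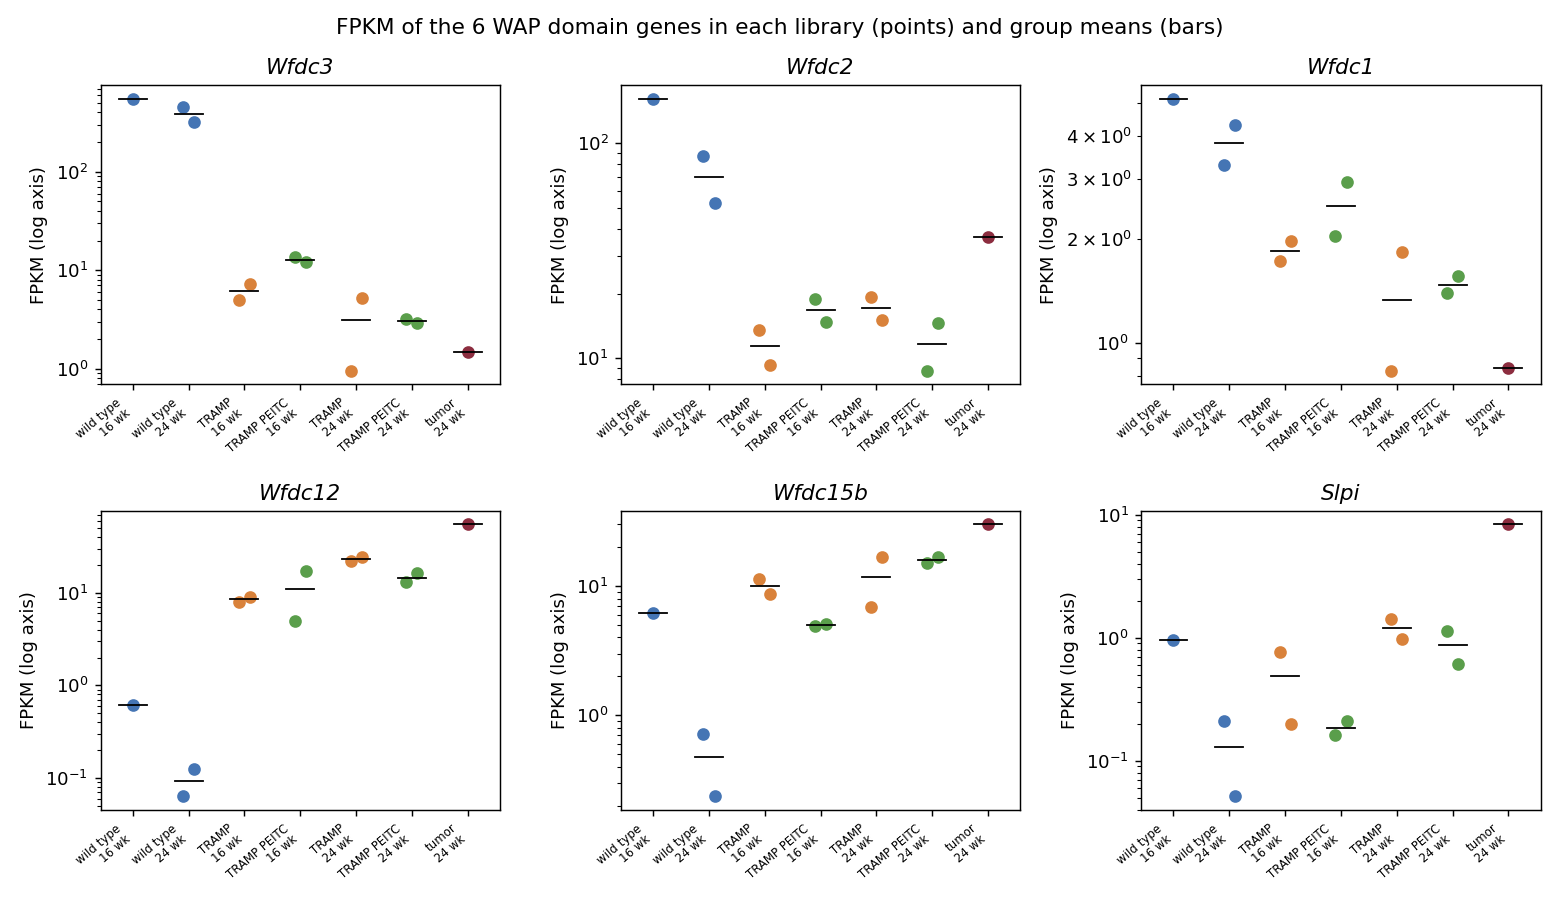
FPKM of the 6 WAP domain genes on a logarithmic axis, by group, with 1 point per library and a bar at the group mean. Wild type points are above all TRAMP prostates for Wfdc3, Wfdc2 and Wfdc1 and below them for Wfdc12. The 16-week wild type point lies within the TRAMP range for Wfdc15b and Slpi, as does 1 of the 24-week points for Slpi.

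**Figure D2:**
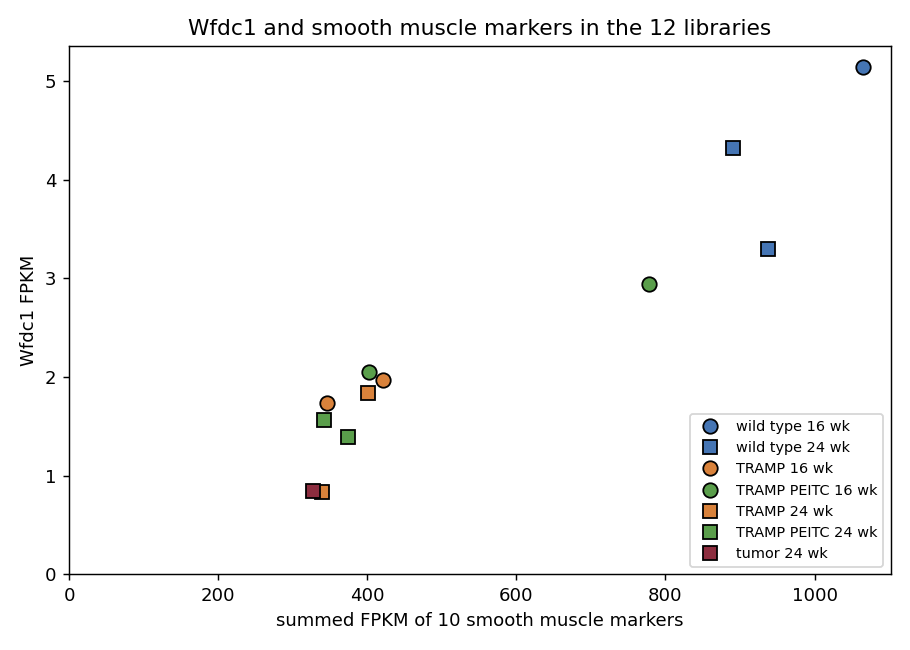
Wfdc1 FPKM against the summed FPKM of 10 smooth muscle markers in each of the 12 libraries, circles for 16 weeks and squares for 24 weeks. The 3 wild type libraries lie at sums of 891 FPKM or more, the PEITC library at 778 FPKM has the highest Wfdc1 of the TRAMP libraries, and the tumor at 327 FPKM is among the lowest.

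The changes in level altered the order of the 6 genes. FPKM is scaled by transcript length, so levels of different genes were set side by side. The annotation behind those lengths is not given, so the order and shares depend on lengths that are unknown here. In the 3 wild type libraries Wfdc3 came first and Wfdc2 second, and Wfdc3 made up between 76.05% and 84.6% of the summed FPKM of the 6 genes, a sum of 375 to 728 FPKM. In the 8 TRAMP prostates the sum was 36.4 to 64.4 FPKM and Wfdc3 made up 1.84% to 30.7% of it. Wfdc2 came first in both control libraries of 16 weeks, Wfdc12 in both control libraries of 24 weeks and Wfdc15b in both PEITC libraries of 24 weeks, while the PEITC libraries of 16 weeks were led by Wfdc2 and Wfdc12. At 16 weeks on control diet, Wfdc2, Wfdc12 and Wfdc15b had overlapping or adjoining ranges, so their order there was not beyond the spread of the pair. The same holds for Wfdc15b (15.1 and 16.7 FPKM) and Wfdc12 (13.02 and 16.27 FPKM) on PEITC diet at 24 weeks. In the tumor Wfdc12 led with 41.6% of a sum of 132 FPKM, and Wfdc3 made up 1.11%.

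**Figure D3:**
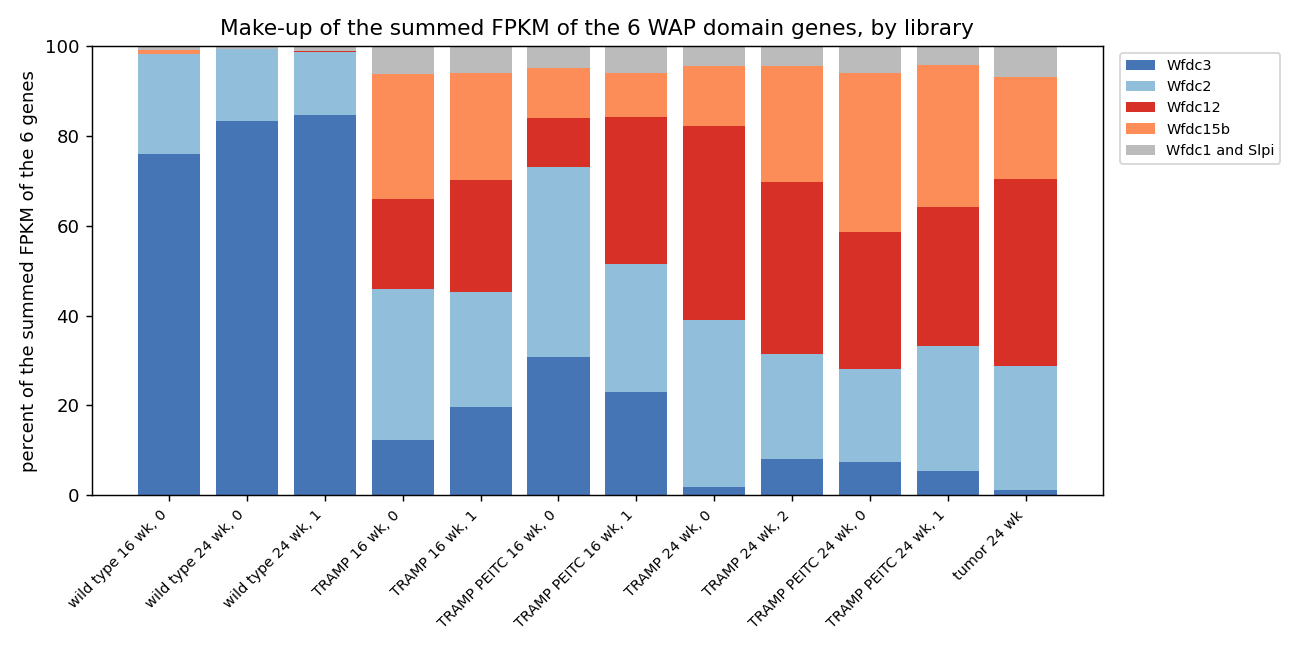
Percent of the summed FPKM of the 6 genes that each gene made up, by library, with Wfdc1 and Slpi drawn together. Wfdc3 fills 76.05% or more of the bar in wild type libraries and at most 30.7% in TRAMP prostates and the tumor.

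PEITC diet gave no call for any of the 6 genes at either age, and the direction was not shared between the ages for Wfdc12, Wfdc15b and Wfdc2. At 24 weeks, limma called 0 of the 6 genes, with 0% of all genes called. At an unadjusted p under 0.05 it held 0 of the 6 and 1267 of all genes. Without replicate 2 of the control pair 160 of all genes were called, and without replicate 0 of the PEITC pair 28, none of them among the 6. The log2 difference between PEITC and control diet was -0.65 for Wfdc12 (SE 0.42, 95% interval -1.62 to 0.32), 0.51 for Wfdc15b (SE 0.34, interval -0.26 to 1.29) and -0.55 for Wfdc2 (SE 0.30, interval -1.25 to 0.16). Both PEITC libraries of 24 weeks were below both control libraries for Wfdc12 and Wfdc2, and such pairs did not overlap for 2 of the 6 genes and 44.6% of all genes tested. Wfdc3, Wfdc1 and Slpi had differences of 0.21, 0.12 and -0.24, and adjusted p-values of the 6 ran from 0.600 to 0.910.

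At 16 weeks limma called 0 of the 6 genes again, with 0.00748% of all genes called, and 1 of the 6 and 1347 of all genes had an unadjusted p under 0.05. That gene was Wfdc15b, at a log2 difference of -0.87 (SE 0.34, interval -1.64 to -0.09, adjusted p = 0.459), with both PEITC libraries below both control libraries. Wfdc3 was higher in both PEITC libraries than in both control libraries, at a difference of 0.98 (SE 0.46, interval -0.08 to 2.05, adjusted p = 0.508). The same was true of Wfdc2 (0.54, interval -0.17 to 1.24, adjusted p = 0.566) and Wfdc1 (0.28, interval -0.23 to 0.79, adjusted p = 0.686). The PEITC and control pairs did not overlap for these 4 of the 6 genes, and for 42.2% of all genes tested. For Wfdc12 the PEITC libraries lay on either side of the control pair (difference 0.12, interval -0.85 to 1.09), and Slpi stood at -0.30. In the same PEITC pair of 16 weeks the basal marker sums were 65.6 and 60.9 FPKM, the highest of the TRAMP prostates. The 24-week control library replicate 0, with the lowest Wfdc3 (0.953 FPKM), had a basal sum of 55.6 FPKM. The lowest basal sum of the TRAMP prostates, 42.2 FPKM, was in the 16-week control library replicate 0, with Wfdc3 at 4.98 FPKM. The tumor had a basal sum of 110 FPKM with Wfdc3 at 1.47 FPKM. The part of basal cells in the Wfdc3 values was not tested.

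The effect of PEITC at 24 weeks minus that at 16 weeks was tested directly. None of the 6 genes was called (0.00748% of all genes called), and Wfdc15b and Wfdc2 had an unadjusted p under 0.05, as had 1720 of all genes. The PEITC effect on Wfdc15b was 1.38 log2 units higher at 24 weeks (SE 0.47, interval 0.28 to 2.48, adjusted p = 0.323). Without replicate 2 of the 24-week control libraries, when 123 of all genes were called, it was 1.96 (adjusted p = 0.0373, the range over all alternatives being 0.0373 to 0.626). For Wfdc2 the PEITC effect was 1.08 log2 units apart in the other direction (-1.08, SE 0.43, interval -2.08 to -0.09, adjusted p = 0.362). Averaged over both ages, PEITC had differences from -0.27 for Slpi to 0.60 for Wfdc3, with 0 of the 6 genes and 0% of all genes called, and 0 of the 6 and 889 of all genes at an unadjusted p under 0.05.

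None of the 6 genes passed the threshold between 16 and 24 weeks, and Wfdc3, Wfdc1, Wfdc12, Wfdc15b and Slpi had differences of the same sign on both diets. On control diet the 24-week libraries were above both 16-week libraries for Wfdc12 (log2 difference 1.36, SE 0.42, interval 0.38 to 2.33, adjusted p = 0.210), Slpi (0.59, interval 0.08 to 1.10, adjusted p = 0.249) and Wfdc2 (0.56, interval -0.14 to 1.26, adjusted p = 0.374). Wfdc3 stood at -1.0025 (SE 0.46, interval -2.07 to 0.06, adjusted p = 0.315). Its 24-week libraries straddled the lower of the 16-week values, and without the 24-week control library replicate 2, when 266 of all genes were called, the difference was -1.84 (adjusted p = 0.0201, range over alternatives 0.0201 to 0.794). Wfdc15b and Wfdc1 had differences of 0.12 and -0.32. The pairs of the 2 ages did not overlap for 3 of the 6 genes and 46.3% of all genes tested. Limma called 0 of the 6 genes and 0.00748% of all genes here, with 2 of the 6 and 2261 of all genes at an unadjusted p under 0.05.

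On PEITC diet Wfdc15b stood at 15.1 and 16.7 FPKM at 24 weeks against 4.90 and 5.04 FPKM at 16 weeks (log2 difference 1.5005, SE 0.34, interval 0.72 to 2.28, adjusted p = 0.467). Wfdc3 stood at 3.20 and 2.88 FPKM against 13.67 and 11.97 FPKM (-1.77, SE 0.46, interval -2.84 to -0.71, adjusted p = 0.555). The pairs of the 2 ages did not overlap for 5 of the 6 genes, Wfdc12 being the exception, and for 48% of all genes tested. Slpi had a difference of 0.65 (adjusted p = 0.568), Wfdc12 0.59, Wfdc2 -0.52 and Wfdc1 -0.49. Limma called 0 of the 6 genes and 0% of all genes, with 3 of the 6 and 1075 of all genes at an unadjusted p under 0.05. Without the 24-week PEITC library replicate 0 it called 27 of all genes and again 0 of the 6, and without replicate 1, the library with neuroendocrine markers, 0 of the 6 here and for PEITC at 24 weeks.

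The mean of both diets, a comparison added after the data were seen, gave differences between 24 and 16 weeks of -1.39 for Wfdc3 (SE 0.33, adjusted p = 0.287), 0.97 for Wfdc12 (SE 0.30, adjusted p = 0.312), 0.81 for Wfdc15b (SE 0.24, adjusted p = 0.309), 0.62 for Slpi (SE 0.16, adjusted p = 0.289), -0.41 for Wfdc1 (SE 0.16, adjusted p = 0.382) and 0.02 for Wfdc2. It called 0 of the 6 genes and 0.0224% of all genes, and 5 of the 6 and 1593 of all genes had an unadjusted p under 0.05. Without replicate 1 of the 16-week PEITC libraries the Wfdc12 difference was 1.38 (adjusted p = 0.0188, range over alternatives 0.0188 to 0.672), and without replicate 2 of the 24-week control libraries that of Wfdc3 was -1.81 (adjusted p = 0.0157, range 0.0157 to 0.666).

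Slpi was the 1 gene of the 6 called in the tumor, where limma called 11.8% of all genes. Its level was 8.38 FPKM, against 1.43 and 0.979 FPKM in TRAMP prostate of the same age and diet, which is 6.96 times their mean. The log2 difference was 2.10 (SE 0.27, interval 1.47 to 2.72, adjusted p = 0.00546), with 5.59% of all genes called higher and 6.17% lower. The tumor held 164 Slpi fragments at 1 fragment a step, against 40 and 26. With the tumor and its control pair alone in the fit, the adjusted p was 0.107, the highest of its alternatives, which began at 0.000557. The tumor is 1 library, so its own spread was taken from the other groups, and the comparison speaks for that tumor.

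Of the other genes, 3 had an unadjusted p under 0.05 in the tumor. Wfdc15b was at 30.02 FPKM, above all prostates (log2 difference 1.39, SE 0.41, interval 0.44 to 2.34, adjusted p = 0.0682), and without replicate 2 of the control pair the difference was 1.97 (adjusted p = 0.0109, range over alternatives 0.0109 to 0.289). Wfdc12 was at 55.1 FPKM, likewise above all prostates, as were 3 of the 6 genes and 20.3% of all genes tested (1.20, SE 0.52, interval 0.01 to 2.39, adjusted p = 0.173). Wfdc2, at 36.6 FPKM, was above all TRAMP prostates and below all wild type ones (1.06, SE 0.37, interval 0.20 to 1.92, adjusted p = 0.108). Wfdc3 stood at -0.50 (interval -1.80 to 0.81, adjusted p = 0.618) and Wfdc1, at 0.842 FPKM, at -0.31 (interval -0.93 to 0.32, adjusted p = 0.513). The control pair differed so much for Wfdc3 that its difference was -1.33 (adjusted p = 0.0363) without replicate 0 and 0.34 (adjusted p = 0.487) without replicate 2, with a range over alternatives of 0.0363 to 0.765. The age, diet and tumor comparisons at 24 weeks share the same control pair.

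**Figure D4:**
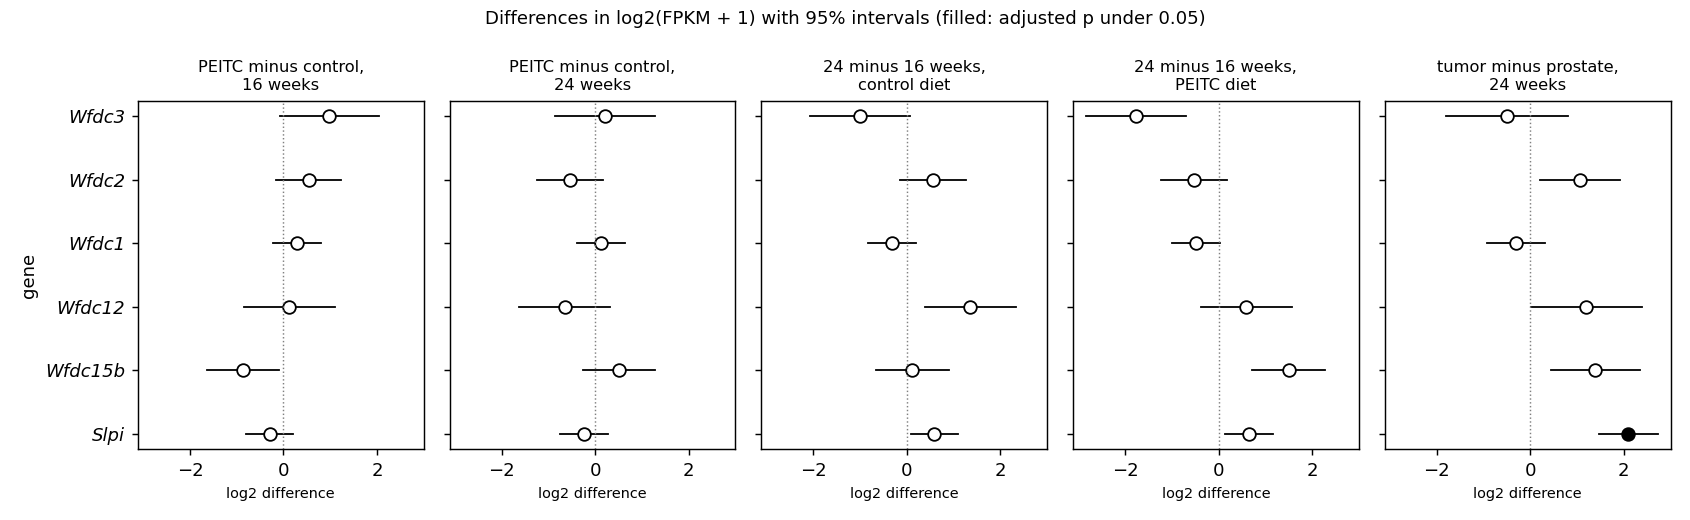
Differences in log2(FPKM + 1) for the 6 genes in 5 comparisons, with points at the estimate and lines for 95% intervals from limma, filled where the adjusted p was under 0.05. Slpi in the tumor, at 2.10, is the 1 filled point.

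Markers listed for neutrophils were at a low level in the tumor beside Slpi, and the only 1 that could be tested was not called. The 9 neutrophil markers listed in the files summed to 7.40 FPKM there, of which Ltf made 2.64, S100a9 2.22 and S100a8 2.06 FPKM, against 0.023 to 1.43 FPKM in TRAMP prostates and 0.288 to 8.10 FPKM in wild type, where Ltf made up nearly all of the highest sum. Of the proteases that Slpi is known to block, neutrophil elastase (Elane) was listed at 0 in the tumor and cathepsin G (Ctsg) was at 0.0893 FPKM, and Mpo, another granule gene, was listed at 0. Basal markers summed to 110 FPKM in the tumor, with Krt17, a keratin of basal and stressed epithelium, at 52.8 FPKM against 1.46 to 6.48 FPKM in TRAMP prostates, while Krt5 and Trp63 were at 4.76 and 0.451 FPKM. The part of these cells in the Slpi value was not tested.

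Proteases and other inhibitors were counted from lists. Of 31 serine proteases that WAP proteins might meet, 10 could be tested. In the tumor Prss22 rose (log2 difference 1.59, adjusted p = 0.0196) and Prss8, which encodes prostasin, fell by 0.43 (adjusted p = 0.0295). At 24 weeks 5 of the 10 rose and 1 fell between TRAMP and wild type (median 0.52, against 45% of all genes called in either direction). Of 28 other protease inhibitors 18 could be tested, and in the tumor Serpinb5, known as maspin, rose by 1.75 (adjusted p = 0.0285). Spink1, a trypsin inhibitor of the prostate's secretion, fell by 2.23 (adjusted p = 0.00590) and Spink5 fell by 1.69 (adjusted p = 0.00405). PEITC called none of the proteases or inhibitors at either age.

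Among 18 other WAP domain genes, 17 were listed in the files, 14 of them under 1 FPKM in every library. Wfdc17 and Wfdc18 passed the filter, and neither was called in any comparison. Wfdc18 was at 17.4 FPKM in the tumor, above all prostates (0.0828 to 6.09 FPKM), as were Slpi, Wfdc12 and Wfdc15b, and 20.3% of all genes tested. Wfdc17, expressed by activated macrophages, ranged from 2.59 to 4.20 FPKM in wild type and from 2.76 to 11.8 FPKM in TRAMP prostates, and was at 10.6 FPKM in the tumor.

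Genes beside the 5 members on chromosome 2 did not all go the way of the members. Dnttip1, whose start lies 51 bases from the upstream end of Wfdc3 in GENCODE, was at 41.7 to 48.7 FPKM in wild type and 39.6 to 46.3 FPKM in TRAMP prostates, while Wfdc3 was at 317 to 554 FPKM in wild type and 0.953 to 13.67 FPKM in TRAMP prostates. Ube2c, an enzyme of mitotic protein degradation on the far side of Dnttip1, was at 1.16 to 7.51 FPKM in wild type and 21.9 to 36.2 FPKM in TRAMP prostates. Sdc4, between Slpi and Wfdc2, was at 146 to 181 FPKM in wild type and 141 to 175 FPKM in TRAMP prostates, and Pigt beside Wfdc2 at 90.1 to 95.1 and 70.8 to 84.8 FPKM. Wfdc12 and Wfdc15b, 23845 bases apart, were both higher in TRAMP than in wild type prostate at 24 weeks and highest in the tumor. Wfdc15a, which lies between that pair, was at 0.192 FPKM in the tumor and did not pass the filter. Of the 18 tested genes of the neighbourhood other than the 5, 2 were called higher and 4 lower at 24 weeks, among them Ube2c, Svs5, Svs2 and Tnnc2, against 45% of all genes called. The 18 include Svs3a, Svs3b, Svs4 and Svs6, which passed the filter through the 16-week wild type library alone (12.2, 9.52, 372 and 54.98 FPKM there) and were at most at 0.0583, 0.108, 1.06 and 0.318 FPKM elsewhere.

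**Figure D5:**
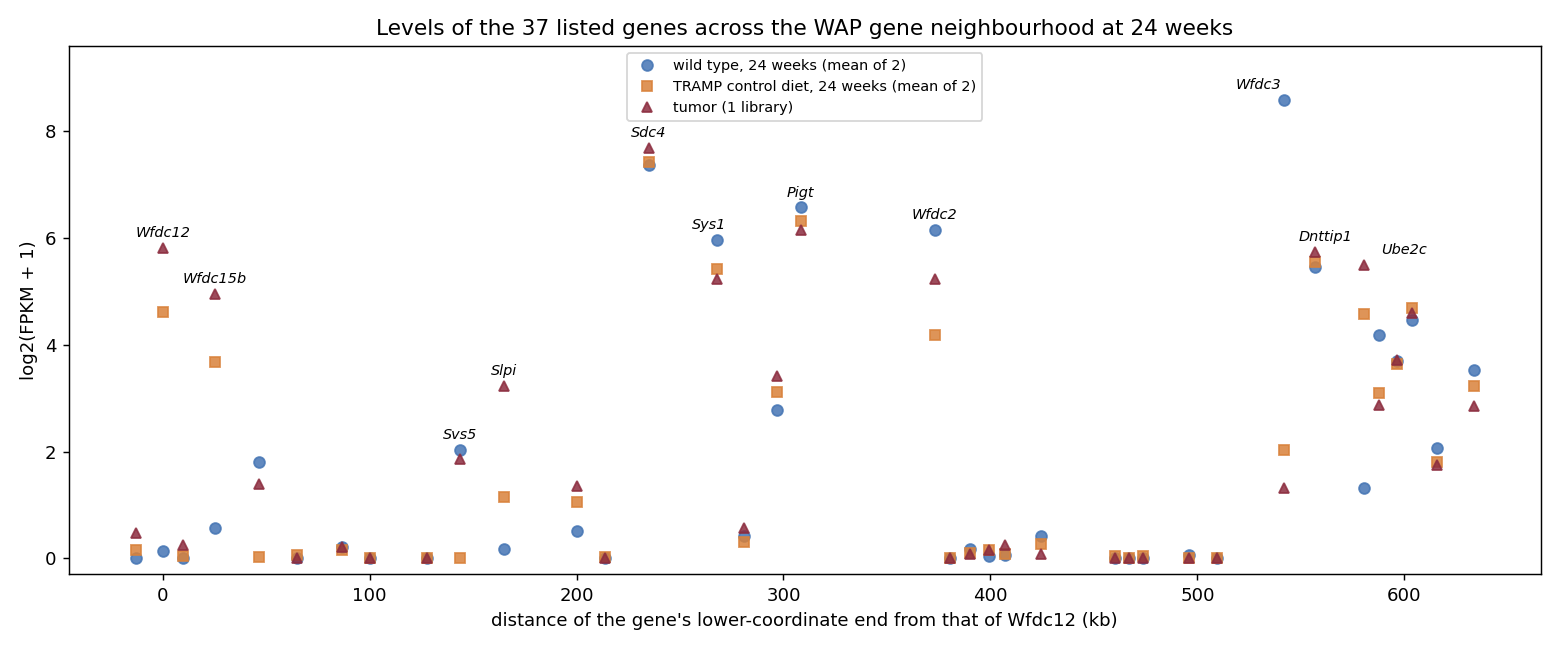
log2(FPKM + 1) of 37 genes of the chromosome 2 neighbourhood against the distance of each gene from Wfdc12 in kb, as the mean of the 24-week wild type pair, the mean of the 24-week TRAMP control pair, and the tumor. The points of Wfdc3 and Wfdc2 are highest in wild type and those of Wfdc12, Wfdc15b and Slpi highest in the tumor, while Sdc4, Pigt and Dnttip1 lie close together in all 3.

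Genes with the most similar pattern were named by Pearson's r on log2(FPKM + 1) over the 12 libraries, as a description. These values are set mostly by the gap between wild type and TRAMP, and the libraries share depth and composition, so r over the 8 TRAMP prostates is also given, as the second value of a pair or alone. For Wfdc3 they were Col23a1 (r = 0.992, and 0.932 over TRAMP prostates), Trp63 (0.990 and 0.949), Krt5 (0.989 and 0.848), Marveld1 (TRAMP prostates 0.864) and Hoxd11 (0.845). Trp63 and Krt5 define basal epithelium, and Krt5 was at 36.9 to 42.5 FPKM in wild type and 4.67 to 10.8 FPKM in TRAMP prostates. Wfdc2 was most like Gsdmc2 (0.980 and 0.768), Lppos (TRAMP prostates 0.674), Uqcc2 (0.8275), Pepd (0.703) and Bax (0.729). Wfdc12 was most like Slc12a7 (0.984 and 0.925), Parp10 (TRAMP prostates 0.795), Daxx (0.790), Casp8 (0.761) and Tmem213 (0.8375). Wfdc15b was most like Mmp7 (0.975 and 0.912), which encodes the secreted metalloprotease matrilysin and was at 26.1 to 152 FPKM in wild type, 185 to 529 FPKM in TRAMP prostates and 997 FPKM in the tumor, and after it Elovl5 (TRAMP prostates 0.774), Srcin1 (0.883), Enho (0.887) and Gata2 (0.807). Wfdc1 was most like Bdh2 (0.967 and 0.960), Fhod3 (TRAMP prostates 0.9215), Man1a (0.904), Adcy5 (0.842) and Fkbp2 (0.916). Slpi was most like Sh3bgrl3 (0.969 and 0.885), Arl4c (TRAMP prostates 0.869), Sepn1 (0.772), Sox4 (0.825) and Pdgfb (0.845), and its values are set largely by the tumor.

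Within the 8 TRAMP prostates, the pairs of the 6 genes that went together most were Wfdc3 with Wfdc1 (r = 0.917), and Slpi went opposite to Wfdc3 (-0.875) and to Wfdc1 (-0.818). Wfdc3 and Wfdc12, which divided wild type from TRAMP in opposite directions (-0.938 over 12 libraries), had r = -0.563 among the TRAMP prostates. For Wfdc3 and Wfdc2, both low in TRAMP, r was 0.822 over 12 libraries and -0.02 among the TRAMP prostates. These 8 libraries differ in age and diet, which all pairs share.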

How the data were processed

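RNA levels were taken from 12 libraries in 7 groups. The deposited values are FPKM, fragment counts that the authors scaled by length and by library size, and cover 24421 genes. The submitters' processing notes name mm10, HISAT2, Picard, featureCounts and DESeq2, with no versions or roles. The annotation is not given in the sources used here, nor is the library size used. Values in a library sum to 395678 to 467650, so only relative levels were read from them, and no count test was run. Depth in reads is unknown, which leaves no counting interval.

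Values were converted to log2(FPKM + 1), which understates changes of low genes. Genes averaging 0.5 FPKM or more (13375) were fitted in limma 3.58.1 (R 4.3.3) with 7 group means, 5 residual degrees of freedom and an intensity trend in the moderated variances. P-values are two-sided and adjusted by Benjamini-Hochberg over all genes tested, and an adjusted p under 0.05 was called. Groups of 1 library take their spread from the others.

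The 6 genes and all lists were chosen with earlier results of these data known. Every one of the 6 is reported in each library, with the 5 genes most like each, the 2 nearest tested neighbours on each side, other WAP genes that passed the filter, and up to 4 called genes per list and comparison, except for an item that is not reported here. Sums over marker lists are sums of FPKM. Transcripts were cut into 50-base stretches to find sequence shared with other genes. Other pseudocounts, filters, scalings and variance models, fits on the compared groups alone, a replicate block and leaving out each library were tried. Python 3.11.15, pandas 2.3.3 and matplotlib 3.10.9 were used for the rest.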

Additional observations from a re-analysis of the deposited data

How the results depend on the processing

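Of 645 recomputed differences of the 6 genes in tested comparisons, 610 kept their direction and their side of the threshold, 27 turned, 7 passed the threshold and 1 (Slpi in the tumor, fitted with the compared groups alone) no longer did. In the tumor comparison the number of the 6 genes called was 1, and became 2 with a pseudocount of 5 (Wfdc15b, adjusted p = 0.0429), 0 with a minimum mean of 2 FPKM (Slpi was not tested), 0 with the compared groups alone and 2 to 2 when a control library was left out. Slpi's difference there ran from 1.11 to 2.72, and its adjusted p from 0.000557 to 0.107. Leaving out 1 library moved the number called from 0 to 0 to 1 for age on control diet, for age over both diets and for the difference of the PEITC effect. No paired analysis was possible for most comparisons because the groups share fewer than 2 replicate numbers; with the replicate block, 0 of the 6 genes and 0 of all genes were called for PEITC at 16 weeks (1 of all genes without the block) and for age on PEITC diet, and with the numbers crossed, an alternative added after seeing the data, 0 were called. Same-numbered libraries deviated together with r = -0.31 and 0.24 in those comparisons, which does not show that they are pairs. Numbers called over all genes moved with the filter (up to 14 without one, from 0 to 3) and with single libraries: leaving out the 24-week control replicate 2 gave 160 for PEITC at 24 weeks, 266 for age on control diet, 123 for the difference of the PEITC effect and 68 for age over both diets, and leaving out the 24-week PEITC replicate 0 gave 28 for PEITC at 24 weeks, 27 for age on PEITC diet, 20 for PEITC over both ages and 24 for age over both diets. In the tumor comparison 1573 became 0 with the compared groups alone and 1047 without control replicate 0.

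The differences that turned sign were all uncalled or untested. Leaving out 1 library gave, for PEITC at 24 weeks, Wfdc3 -0.62 to 1.05, Wfdc1 -0.19 to 0.44 and Wfdc15b -0.0682 to 1.0934; for PEITC at 16 weeks, Wfdc12 -0.69 to 0.92; and for PEITC over both ages, Wfdc12 -0.67 to 0.14, Wfdc2 -0.17 to 0.16 and Wfdc15b -0.47 to 0.11. For the difference of the PEITC effect it gave Wfdc3 -1.6054 to 0.0671, Wfdc12 -1.5737 to 0.0369, Wfdc1 -0.48 to 0.15 and Slpi -0.22 to 0.34. For age it gave Wfdc15b -0.46 to 0.70 on control diet, Wfdc12 -0.22 to 1.39 on PEITC diet and Wfdc2 -0.15 to 0.19 over both diets, and in the tumor Wfdc3 -1.33 to 0.34 and Wfdc1 -0.6208 to 0.0104. Wfdc2 for PEITC over both ages was 0.0105 when libraries were rescaled without their 50 most abundant genes, and Slpi in TRAMP at 16 weeks was 0.37 against the 24-week wild type libraries. Apart from fewer samples, the cause of these changes was not tested. At 1 fragment a step, the wild type levels of Wfdc12 and Slpi rest on 1 to 17 fragments.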
